A study of Homo sapiens with 9 samples.

Results

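The enzymes and transporters that carry glucose into pyruvate, lactate and pentose phosphates were followed in LAN5 cells after depletion of MYCN or HAND2. They comprised 36 genes, taken by gene symbol from a table of 25084 genes, and each of the 36 passed the filter on low values described with the processing. LAN5 is an established neuroblastoma cell line, a tumour line of the sympathetic nervous system lineage. The cells received a control siRNA (siCTR), the siRNA labelled siMYCN_2 or the siRNA labelled siHAND2_3 by nucleofection, and total RNA was taken after 72 h of culture in serum-containing medium. Each siRNA had 3 libraries, called siCTR, siMYCN and siHAND2 libraries here. MYCN is the MYC-family transcription factor of neuroblastoma, and HAND2 is a basic helix-loop-helix transcription factor of sympathetic neuroblasts. Each target was tested with 1 labelled siRNA in 1 cell line, and all 9 libraries came from nucleofected cells. The labels do not say that the libraries of a group came from separate cultures, so p-values measure the spread between these libraries, which may be technical.

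Glycolysis splits glucose into pyruvate in the cytosol. Pyruvate is then reduced to lactate and exported, or enters mitochondria, where the pyruvate dehydrogenase complex makes acetyl-CoA and pyruvate carboxylase makes oxaloacetate. The pentose phosphate pathway branches off at glucose 6-phosphate and yields ribose 5-phosphate and NADPH. MYC-family proteins and the hypoxia-inducible factors are known regulators of several of these genes in tumours, and many steps are served by more than one isoenzyme encoded by separate genes.

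Values are CPM, read counts per gene with every library brought to an equal total. Assigned reads, read from the step between low values, ranged from 21.1 to 32.7 M per library, which gives a counting error of 17.5% to 21.8% at 1 CPM. MYCN itself measured 1842 ± 54.2 CPM (SD, n = 3) in siCTR, 1289 ± 47.0 in siMYCN and 914 ± 48.4 in siHAND2 libraries, so the siHAND2 libraries also had less MYCN RNA than the siMYCN libraries. HAND2 measured 501 ± 13.7, 571 ± 15.9 and 272 ± 7.65 CPM in the same order. Markers of a noradrenergic neuroblastoma cell were present, 10 of 10 above a mean of 1 CPM, with a summed level of 1761 to 1898 CPM in siCTR, 2292 to 2387 in siMYCN and 1944 to 2098 in siHAND2 libraries. None of 5 Schwann cell and none of 4 endothelial markers reached a mean of 1 CPM, and the endothelial markers PECAM1, CDH5 and KDR were near 0. Of 6 fibroblast markers, 5 exceeded a mean of 1 CPM, and their sum was 216 to 230 CPM in siCTR, 261 to 270 in siMYCN and 548 to 625 in siHAND2 libraries. The part of these marker differences in the results on the 36 genes was not tested. In bulk RNA, fewer cells of a type and less RNA per cell cannot be told apart.

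Most of the 36 genes were lower after either knockdown. Their summed level was 15032 ± 322 CPM (SD, n = 3) in siCTR, 11985 ± 171 in siMYCN and 11857 ± 186 in siHAND2 libraries, and the 3 siCTR sums lay above all 6 others. In the siMYCN libraries 25 of the 36 were lower than in siCTR, 3 were higher and 8 did not pass the threshold (limma on log2(CPM + 1), Benjamini-Hochberg adjusted p below 0.05 over 14495 genes). Over all genes tested, 11.4% were called lower and 24.5% higher in that contrast. In the siHAND2 libraries 25 of the 36 were lower, 0 were higher and 11 did not pass, against 11.8% of all genes lower and 18.1% higher, or 29.9% called in either direction. Among members without an adjusted call, PFKFB2 was the single gene higher in siHAND2 libraries at an unadjusted limma p below 0.05. The median log2 fold change of the 36 was -0.21 in siMYCN and -0.25 in siHAND2 libraries, beside 0.06 and 0.04 over all genes. Both contrasts share the siCTR libraries, so their results are not independent of each other.

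The members are abundant, and abundant genes have smaller errors. Of the 30 members with a mean of at least 20 CPM, 24 were lower in siMYCN and 23 in siHAND2 libraries, whereas 14.7% of 7782 genes of that abundance were called lower in each contrast. With a further requirement of a log2 fold change of -0.25 or below, 17 of 36 members were lower in siMYCN and 18 in siHAND2 libraries, against 6.85% and 7.09% of all genes. All 3 knockdown libraries lay below all 3 siCTR libraries for 25 members after siMYCN and 27 after siHAND2, where 16.1% and 16.6% of all genes did so. The balance of all genes depended on the scaling. As deposited, 3556 genes were called higher and 1653 lower in siMYCN, and 2630 higher and 1709 lower in siHAND2 libraries. After median-ratio rescaling these were 2443 and 2333, and 2001 and 2250, so that 16.1% and 15.5% of all genes were called lower, while 26 and 27 members were lower.

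**Figure D1:**
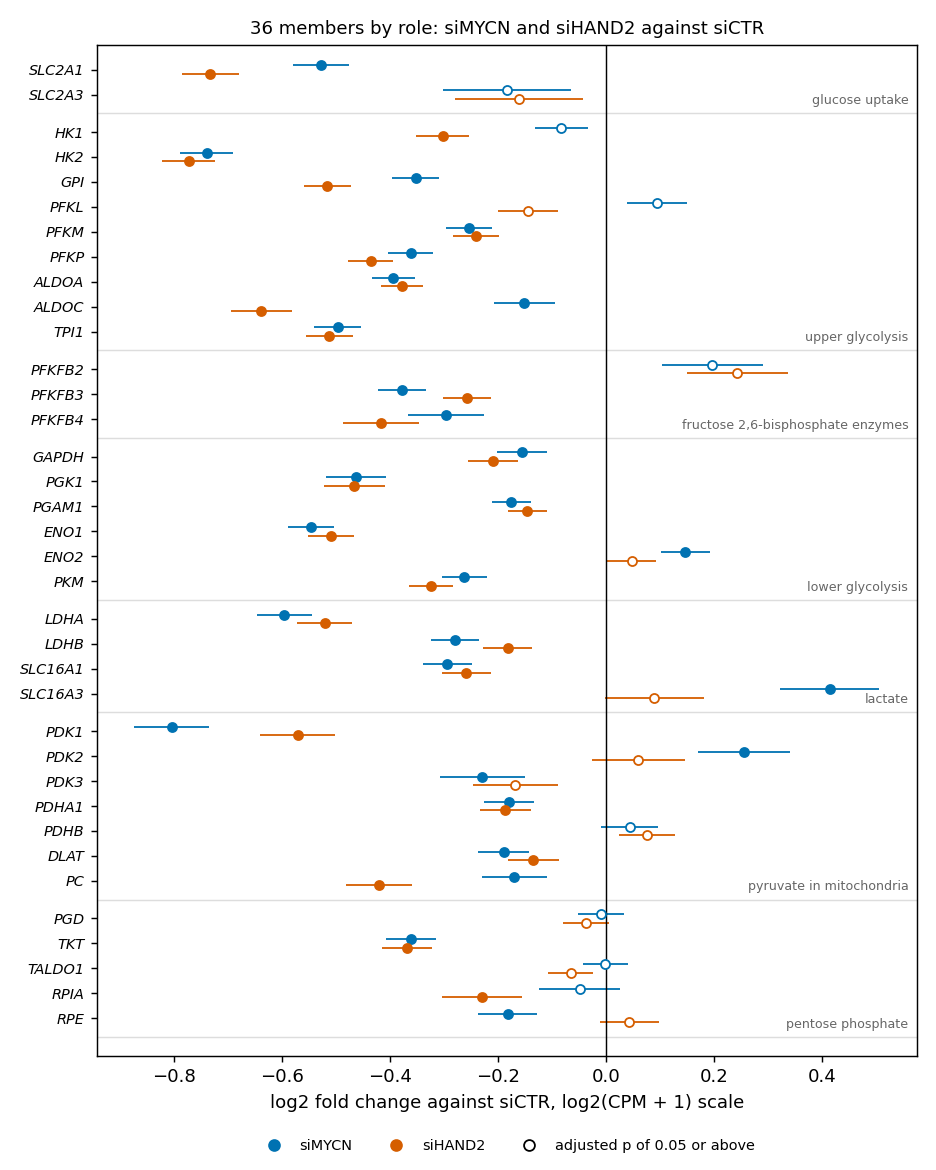
Log2 fold change against siCTR on the log2(CPM + 1) scale (horizontal axis) of each of the 36 genes, listed by role, for siMYCN (blue) and siHAND2 (orange). Bars are standard errors of limma and open points have an adjusted p of 0.05 or above. Most points lie left of 0 in both contrasts, PDK1, HK2, SLC2A1, LDHA and ENO1 among the farthest.

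**Figure D2:**
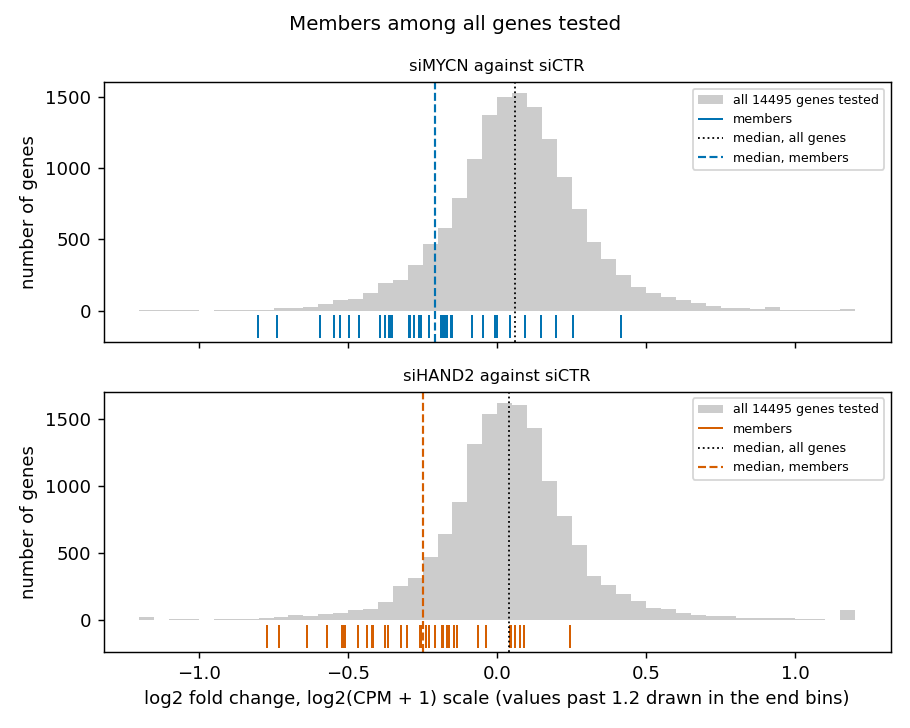
Histograms of the log2 fold changes of all 14495 genes tested (grey, number of genes on the vertical axis) with 1 tick per member below, for siMYCN (top) and siHAND2 (bottom) against siCTR. Dashed lines mark the members' medians of -0.21 and -0.25, dotted lines those of all genes, 0.06 and 0.04.

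The sequence upstream of these genes was inspected for the hexamer CACGTG, the canonical E-box bound by MYC-family proteins with MAX, because the members moved together. RefSeq promoters (GRCh38.p14, the 250 bases before the annotated start) were matched for 33 of the 36 members. The RefSeq start did not always match the gene start given with the CPM values. The distance was largest for PGK1 (193509 bases), LDHB (100015), GPI (5512) and PFKFB4 (5212). For GAPDH it was 752 bases, so that its window lies inside the gene as placed by those positions. All motif counts, GAPDH included, therefore rest on the RefSeq starts. CACGTG, which reads the same on both strands, stood in 4 of the 33 (12.1%), namely ALDOC, GAPDH, LDHA and PDHB, against 9.02% of 10364 promoters of tested genes and 6.49% of all 27305. The shorter ACGTG, part of the hypoxia response element, was searched on both strands and stood in 13 of the 33 (39.4%), against 23.5% of promoters of tested genes and 18.7% of all. Since CACGTG holds ACGTG, the shorter motif was also counted outside CACGTG, in 12 of the 33 (36.4%) against 16.2% and 13.3%. CATCTG, an E-box variant, was searched on both strands and stood in 4 of the 33 (12.1%), namely GAPDH, GPI, LDHB and PDK2, against 7.81% of promoters of tested genes and 12.2% of all. A match describes the letters of the window and says nothing of binding.

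LDHA is shown because it has CACGTG at 2 places, 185 and 87 bases before its start, ALDOC and PDHB because each has it once, at 240 and 236 bases before the start, and HK2 as a gene with a large decrease and no CACGTG. The windows are chr11:18394313-18394562 on the plus strand for LDHA, chr17:28576896-28577145 on the minus strand for ALDOC, chr3:58433833-58434082 on the minus strand for PDHB and chr2:74833877-74834126 on the plus strand for HK2, each written 5′ to 3′ with CACGTG and ACGTG, on either strand, in capitals.
LDHA: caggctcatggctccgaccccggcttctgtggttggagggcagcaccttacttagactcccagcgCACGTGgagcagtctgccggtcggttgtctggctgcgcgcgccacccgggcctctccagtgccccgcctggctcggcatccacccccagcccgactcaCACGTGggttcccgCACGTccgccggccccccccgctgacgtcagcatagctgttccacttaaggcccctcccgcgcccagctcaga
ALDOC: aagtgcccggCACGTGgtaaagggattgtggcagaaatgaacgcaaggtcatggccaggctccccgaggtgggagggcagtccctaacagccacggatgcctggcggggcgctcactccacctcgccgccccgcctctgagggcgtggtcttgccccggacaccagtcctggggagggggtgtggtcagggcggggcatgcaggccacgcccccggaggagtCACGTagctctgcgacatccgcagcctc
PDHB: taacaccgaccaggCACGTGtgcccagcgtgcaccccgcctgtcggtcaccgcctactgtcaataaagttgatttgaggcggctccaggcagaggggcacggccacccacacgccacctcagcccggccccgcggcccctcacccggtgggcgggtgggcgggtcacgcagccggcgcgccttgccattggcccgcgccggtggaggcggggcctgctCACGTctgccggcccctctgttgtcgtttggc
HK2: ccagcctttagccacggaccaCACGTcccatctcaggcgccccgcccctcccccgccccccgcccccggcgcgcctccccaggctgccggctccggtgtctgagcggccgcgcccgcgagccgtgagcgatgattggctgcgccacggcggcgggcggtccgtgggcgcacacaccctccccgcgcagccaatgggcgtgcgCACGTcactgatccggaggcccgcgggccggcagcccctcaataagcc
Of these 4, HK2, LDHA and ALDOC were lower after both knockdowns, ALDOC only narrowly in siMYCN libraries, whereas PDHB passed the threshold after neither. Of the 4 members with CACGTG, 3 were lower in each knockdown, and of the 29 without it 21 were lower in each. Over all tested genes with a promoter, 19.8% of 935 with CACGTG and 11.4% of 9429 without it were called lower in siMYCN libraries. The same shares were 18.3% and 12.3% in siHAND2 libraries.

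Glucose enters the cell through facilitative transporters. SLC2A1, which encodes the widespread transporter GLUT1 (chromosome 1, 42925375 to 42958868), measured 76.0, 77.9 and 70.3 CPM with the control siRNA, 54.3, 50.2 and 50.1 with siMYCN and 45.8, 44.2 and 43.6 with siHAND2. The 3 groups did not overlap, with siCTR highest and siHAND2 lowest. Its log2 change was -0.53 (SE 0.052, adjusted p = 1.41e-06) in siMYCN and -0.73 (SE 0.052, adjusted p = 2.46e-08) in siHAND2 libraries, that is 69.0% and 59.6% of the siCTR mean. Between the knockdowns, siHAND2 was lower than siMYCN, with a log2 difference of -0.20 (adjusted p = 0.00763). SLC2A3, the neuronal transporter GLUT3, was near the detection filter at 1.33 to 1.61 CPM under siCTR, 1.07 to 1.34 under siMYCN and 1.12 to 1.38 under siHAND2, and passed in neither contrast (adjusted p = 0.246 and 0.332). Its pseudogene rows held 45.3% of its own level in siCTR, 83.6% in siMYCN and 92.0% in siHAND2 libraries. With these rows added its log2 change was 0.0091 in siMYCN and 0.086 in siHAND2 libraries, so reads may be split between near-identical copies and its value is uncertain.

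Hexokinases trap glucose as glucose 6-phosphate. HK2, the inducible mitochondria-bound hexokinase (chromosome 2, 74834127 to 74893359), measured 148, 136 and 129 CPM with the control siRNA, 81.9, 82.9 and 81.7 with siMYCN and 78.2, 79.7 and 82.9 with siHAND2. All 6 knockdown libraries lay well below the lowest siCTR library, and the knockdowns overlapped each other. The log2 change of HK2 was -0.74 (SE 0.049, adjusted p = 3.59e-08) in siMYCN and -0.77 (SE 0.049, adjusted p = 6.27e-09) in siHAND2 libraries, which leaves 59.6% and 58.2% of the siCTR level. HK1, the constitutive isoenzyme (chromosome 10, 69269984 to 69401884), measured 279.7, 268 and 247 CPM under siCTR, 259, 241 and 251 under siMYCN and 222, 216 and 206 under siHAND2. Here siMYCN overlapped siCTR (log2 change -0.083 at adjusted p = 0.204), although this change passed under median-ratio scaling (-0.14) and quantile normalization (-0.13). In contrast, each siHAND2 library lay below all others, with a log2 change of -0.30 (adjusted p = 0.000192) from siCTR and -0.22 (adjusted p = 0.00291) from siMYCN.

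Glucose 6-phosphate isomerase and the phosphofructokinases follow. GPI, the isomerase (chromosome 19, 34359480 to 34402413), measured 534, 523 and 489.7 CPM with the control siRNA, 420.0, 394 and 396 with siMYCN and 359, 369 and 352 with siHAND2. The groups formed 3 separate levels, and GPI fell by 0.35 (adjusted p = 1.27e-05) in siMYCN and by 0.52 (adjusted p = 1.66e-07) in siHAND2 libraries on the log2 scale. Its difference between the knockdowns, -0.16 (adjusted p = 0.0102), did not pass without siMYCN replicate 1, where it was -0.13. The phosphofructokinase PFKP (chromosome 10, 3066333 to 3137718), the platelet form of the enzyme that commits sugar to glycolysis, measured 205, 211 and 201 CPM under siCTR, 159, 165 and 155 under siMYCN and 146, 154 and 155 under siHAND2. Both knockdowns lay below siCTR, with log2 changes of -0.36 (adjusted p = 6.5e-06) and -0.43 (adjusted p = 7.22e-07). PFKM, the muscle form (chromosome 12, 48105139 to 48146404), measured 189.8, 196 and 187 CPM with the control siRNA, 160.4, 157 and 163 with siMYCN and 170.1, 156 and 159 with siHAND2. PFKM was also below siCTR in all 6 knockdown libraries, by log2 changes of -0.25 (adjusted p = 0.000254) and -0.24 (adjusted p = 0.00049). Its row overlaps SENP1 on the opposite strand, at 20.1% of its level, and the use of strand in counting is not given in the sources used here. PFKL, the liver form, measured 76.9 to 81.1 CPM with the control siRNA, 80.0 to 86.8 with siMYCN and 64.6 to 74.8 with siHAND2. It passed against siCTR in neither knockdown (0.094 at adjusted p = 0.204 and -0.14 at adjusted p = 0.0597) but was lower in siHAND2 than in siMYCN libraries, by a log2 difference of -0.24 (adjusted p = 0.00407). The siHAND2 change of PFKL from siCTR passed under median-ratio scaling (-0.18), quantile normalization (-0.17) and the replicate block, and without siHAND2 replicate 1 (-0.17) or siHAND2 replicate 2 (-0.18).

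Aldolase and triose phosphate isomerase make the triose phosphates. ALDOA, the main aldolase (chromosome 16, 30064164 to 30072207), measured 521, 531 and 513 CPM under siCTR, 409, 402 and 382 under siMYCN and 394, 406 and 404 under siHAND2. The knockdowns overlapped each other below siCTR, with log2 changes of -0.39 (adjusted p = 1.59e-06) and -0.38 (adjusted p = 1.86e-06). An unnamed locus on its strand, AC093512.2, overlaps its row at 10.9% of its level. ALDOC, the brain aldolase (chromosome 17, 28573115 to 28576948) whose promoter is printed above, measured 36.7, 38.7 and 36.1 CPM with the control siRNA, 33.7, 33.8 and 32.6 with siMYCN and 24.9, 22.0 and 23.7 with siHAND2. The siHAND2 libraries stood far below both other groups, -0.64 (SE 0.057, adjusted p = 3.12e-07) from siCTR and -0.49 (SE 0.057, adjusted p = 6.4e-06) from siMYCN on the log2 scale. The siMYCN change of ALDOC, -0.15 (adjusted p = 0.0487), passed only narrowly. It did not pass with any 1 of the 3 siCTR or 3 siMYCN libraries left out, where it ranged from -0.17 to -0.12. With no filter on low values or no intensity trend, the siMYCN change of ALDOC did not pass either. TPI1, the isomerase that interconverts the trioses (chromosome 12, 6867119 to 6870948), measured 1097, 1127 and 1066 CPM under siCTR, 796, 784 and 751 under siMYCN and 760.0, 744 and 803 under siHAND2. It was lower in all 6 knockdown libraries, with log2 changes of -0.50 (SE 0.043, adjusted p = 4.04e-07) and -0.51 (SE 0.043, adjusted p = 1.69e-07).

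Across the 9 genes from hexokinase to triose phosphate isomerase, 7 were lower in siMYCN and 8 in siHAND2 libraries and none was higher in either, also at an unadjusted limma p below 0.05. By adjusted p, 11.4% and 11.8% of all genes were lower and 24.5% and 18.1% higher. In the direct comparison of the knockdowns, HK1, GPI, PFKL and ALDOC were lower in siHAND2 libraries. The bifunctional PFKFB enzymes set the level of fructose 2,6-bisphosphate, the activator of phosphofructokinase. PFKFB3 (chromosome 10, 6144934 to 6254644), the form with the highest kinase activity, measured 143, 135 and 136 CPM with the control siRNA, 109, 105 and 103 with siMYCN and 112, 114 and 120.1 with siHAND2. The siMYCN libraries were lowest, with log2 changes from siCTR of -0.38 (adjusted p = 7.41e-06) in siMYCN and -0.26 (adjusted p = 0.000349) in siHAND2 libraries. PFKFB4 (chromosome 3, 48517684 to 48562015) was less abundant, at 20.1, 18.7 and 18.1 CPM under siCTR, 14.9, 16.3 and 14.7 under siMYCN and 14.0, 13.1 and 14.8 under siHAND2. It fell as well, by log2 changes of -0.30 (adjusted p = 0.00355) and -0.42 (adjusted p = 0.000271). PFKFB2, at 4.87 to 5.10 CPM with the control siRNA, 5.14 to 6.51 with siMYCN and 5.66 to 6.48 with siHAND2, lay higher in all 6 knockdown libraries but did not pass (0.20 at adjusted p = 0.113 and 0.24 at adjusted p = 0.0598). Without siMYCN replicate 2 both PFKFB2 changes passed, at 0.28 in siMYCN and 0.24 in siHAND2 libraries, and the siHAND2 change also passed with the replicate block (adjusted p = 0.0485) and with no intensity trend (adjusted p = 0.0409). The gene YOD1 on the opposite strand overlaps PFKFB2 at 480% of its level, so its value is uncertain.

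**Figure D3:**
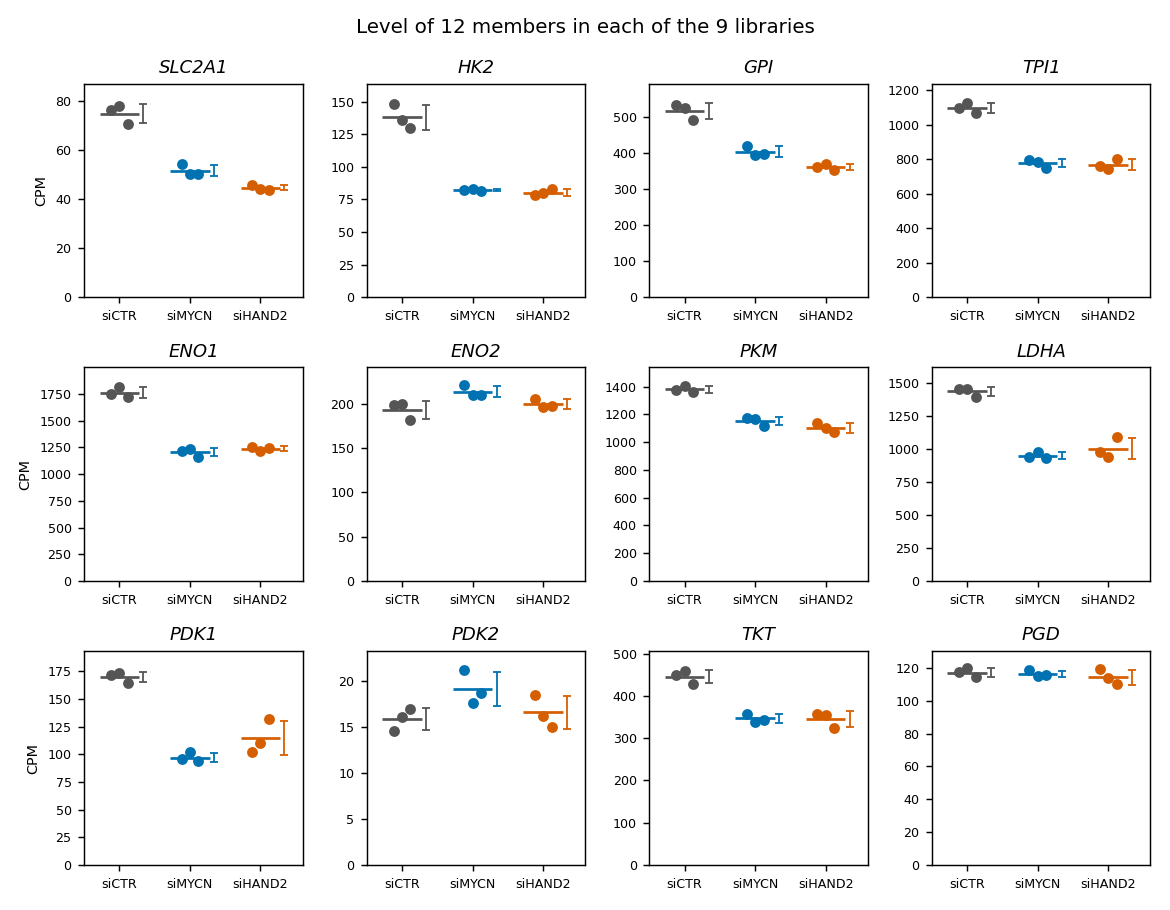
CPM (vertical axis, from 0) of 12 members in each of the 9 libraries, 1 point per library, with the group mean as a line and its SD as a bar. The siCTR points of HK2, LDHA, ENO1 and PDK1 lie above all knockdown points, and the PGD points of the 3 groups overlap.

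Lower glycolysis recovers ATP and ends in pyruvate. Of its 6 genes, 5 were lower and 1 was higher in siMYCN libraries, and 5 were lower and 1 did not pass in siHAND2 libraries. Among all genes tested, 11.4% were lower and 24.5% higher in siMYCN, and 11.8% and 18.1% in siHAND2 libraries. GAPDH, glyceraldehyde 3-phosphate dehydrogenase (chromosome 12, 6534512 to 6538374), measured 3238, 3414 and 3306 CPM under siCTR, 3073, 2895 and 2977 under siMYCN and 2954, 2857 and 2808 under siHAND2. It was lower in all 6 knockdown libraries by a small margin, with log2 changes of -0.15 (adjusted p = 0.0154) and -0.21 (adjusted p = 0.0028). Under quantile normalization both changes were -0.038 and neither passed, and the siMYCN change also did not pass without siCTR replicate 2 or without siMYCN replicate 2, at -0.13 each. With no filter on low values, the siMYCN change of GAPDH did not pass either. PGK1, phosphoglycerate kinase (chromosome X, 77910739 to 78129295), measured 907, 958 and 895 CPM with the control siRNA, 639, 719 and 646 with siMYCN and 647, 631 and 722 with siHAND2. Both knockdowns lay clear of siCTR, with log2 changes of -0.46 (adjusted p = 1.02e-05) and -0.47 (adjusted p = 9.39e-06). ATP7A on the same strand overlaps the PGK1 row, at 15.8% of its level. PGAM1, phosphoglycerate mutase, ranged over 407 to 417 CPM under siCTR, 360.0 to 369.7 under siMYCN and 371 to 379 under siHAND2, with smaller log2 changes of -0.18 (adjusted p = 0.00137) and -0.15 (adjusted p = 0.0063).

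The enolase genes moved in opposite directions in siMYCN libraries. ENO1, the widespread enolase (chromosome 1, 8861000 to 8879190), measured 1748, 1816 and 1717 CPM with the control siRNA, 1216, 1239 and 1160.5 with siMYCN and 1257, 1214 and 1239 with siHAND2. All 6 knockdown libraries lay below the lowest siCTR library, with log2 changes of -0.55 (SE 0.043, adjusted p = 1.3e-07) and -0.51 (SE 0.043, adjusted p = 1.53e-07). ENO2, the neuron-specific enolase (chromosome 12, 6913745 to 6923698), measured 198, 199.6 and 181 CPM under siCTR, 221, 209.9 and 209.6 under siMYCN and 205, 196 and 197 under siHAND2. The 3 siMYCN libraries lay above the 3 siCTR libraries and the siHAND2 libraries overlapped them, with log2 changes of 0.15 (adjusted p = 0.0185) and 0.048 (adjusted p = 0.459). The rise of ENO2 did not pass under median-ratio scaling (0.09), quantile normalization (0.08) or no intensity trend (0.15), or without siCTR replicate 3 (0.10) or siMYCN replicate 1 (0.12). ENO2 starts 42.8 kb past the end of TPI1 on chromosome 12, so genes with a change of opposite sign were close neighbours. PKM, pyruvate kinase (chromosome 15, 72199029 to 72231822), measured 1372, 1407 and 1363 CPM with the control siRNA, 1171, 1164 and 1120.2 with siMYCN and 1139.7, 1102 and 1070.2 with siHAND2. It was lower in all 6 knockdown libraries, with log2 changes of -0.26 (adjusted p = 0.000137) and -0.32 (adjusted p = 1.82e-05), and the siMYCN change did not pass under quantile normalization (-0.08). The row sums the PKM1 and PKM2 splice forms, which the table does not separate.

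Lactate dehydrogenase and the monocarboxylate transporters handle lactate. Of these 4 genes, 3 were lower and 1 was higher in siMYCN libraries, and 3 were lower and 1 did not pass in siHAND2 libraries. Shares over all genes were 11.4% lower and 24.5% higher in siMYCN, and 11.8% and 18.1% in siHAND2 libraries. LDHA (chromosome 11, 18394560 to 18408425), the subunit that favours lactate formation, measured 1451, 1455 and 1394 CPM under siCTR, 937, 979 and 931 under siMYCN and 977, 937 and 1088 under siHAND2. Every knockdown library lay far below every siCTR library, with log2 changes of -0.59 (SE 0.051, adjusted p = 3.51e-07) and -0.52 (SE 0.051, adjusted p = 9.59e-07), or 66.2% and 69.8% of the siCTR mean. LDHB (chromosome 12, 21635342 to 21757857), the heart-type subunit, measured 756, 806 and 787 CPM with the control siRNA, 646, 620.0 and 669 with siMYCN and 697, 659.6 and 714 with siHAND2. Its log2 changes were -0.28 (adjusted p = 0.000156) and -0.18 (adjusted p = 0.00569), and the highest siHAND2 library still lay below the lowest siCTR library. SLC16A1, the lactate transporter MCT1 (chromosome 1, 112911847 to 112957013), measured 324, 317 and 314 CPM under siCTR, 261, 256 and 261 under siMYCN and 270.5, 247 and 282 under siHAND2. Both knockdowns were lower, with log2 changes of -0.29 (adjusted p = 0.000124) and -0.26 (adjusted p = 0.00045). SLC16A3, the export transporter MCT4 (chromosome 17, 82228397 to 82261129), was rare, at 4.00, 3.67 and 3.41 CPM with the control siRNA, 5.44, 5.33 and 4.98 with siMYCN and 4.12, 4.08 and 3.77 with siHAND2. It was higher in the siMYCN libraries, 0.41 (adjusted p = 0.00223) from siCTR, and was not called in siHAND2 libraries, 0.089 (adjusted p = 0.499). Between the knockdowns siHAND2 lay below siMYCN by a log2 difference of -0.33 (adjusted p = 0.0145), which did not pass without siMYCN replicate 1 (-0.30) or with no filter on low values. Its row overlaps CSNK1D on the opposite strand, which has 59.2 CPM, and AC132872.4 on its own strand at 29.2% of its level, so the value of SLC16A3 is uncertain.

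Pyruvate dehydrogenase kinases switch the pyruvate dehydrogenase complex off by phosphorylating it. Of the 7 genes of mitochondrial pyruvate use, 5 were lower and 1 was higher in siMYCN libraries, and 4 were lower and 3 did not pass in siHAND2 libraries. Beside them, 11.4% of all genes were lower and 24.5% higher in siMYCN, and 11.8% and 18.1% in siHAND2 libraries. PDK1 (chromosome 2, 172555373 to 172608669), a kinase known as a hypoxia-inducible factor target, measured 172, 173 and 165 CPM under siCTR, 95.8, 102 and 93.5 under siMYCN and 102, 110.1 and 132 under siHAND2. It had the lowest log2 change of the 36 in siMYCN libraries, -0.80 (SE 0.069, adjusted p = 3.43e-07), and -0.57 (SE 0.069, adjusted p = 9.83e-06) in siHAND2 libraries. PDK1 was higher in siHAND2 than in siMYCN libraries (0.23 at adjusted p = 0.0188), a difference that did not pass without siMYCN replicate 1, siMYCN replicate 3 or siHAND2 replicate 3, the last at 0.13. With no intensity trend that difference did not pass either. PDK2 (chromosome 17, 50094737 to 50112152) measured 14.5, 16.1 and 16.9 CPM with the control siRNA, 21.1, 17.6 and 18.6 with siMYCN and 18.5, 16.2 and 15.0 with siHAND2. It was higher in siMYCN libraries by 0.26 (adjusted p = 0.0284), with 0.060 (adjusted p = 0.638) in siHAND2 libraries. The siMYCN rise of PDK2 did not pass under median-ratio scaling (0.20), quantile normalization (0.18), no intensity trend or no filter on low values. Nor did it pass when siCTR replicate 1 or 2, or siMYCN replicate 1 or 3, was left out, at 0.18 to 0.27. SAMD14 on the opposite strand overlaps PDK2 at 162% of its level, so this value is uncertain. PDK3, another kinase of this family, ranged over 50.0 to 56.5 CPM under siCTR, 43.0 to 50.0 under siMYCN and 41.7 to 53.1 under siHAND2. Its siMYCN change of -0.23 (adjusted p = 0.0314) did not pass when siCTR replicate 1 or 3, or siMYCN replicate 1 or 2, was left out, at -0.22 to -0.19, nor with no filter on low values or no intensity trend. Its siHAND2 change of -0.17 (adjusted p = 0.12) passed under median-ratio scaling (-0.21), under the replicate block and without siHAND2 replicate 3 (-0.25).

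The subunits of the complex had log2 changes nearer to 0 than those of PDK1, a difference that was not tested. PDHA1, the catalytic alpha subunit that the kinases phosphorylate, ranged over 102 to 104 CPM with the control siRNA, 84.9 to 94.7 with siMYCN and 87.3 to 92.0 with siHAND2, with log2 changes of -0.18 (adjusted p = 0.00721) and -0.19 (adjusted p = 0.00674). PDHB, the beta subunit, ranged over 59.0 to 64.9, 62.2 to 65.3 and 61.0 to 68.3 CPM, and the groups overlapped (log2 changes 0.044 at adjusted p = 0.55 and 0.076 at adjusted p = 0.298). DLAT, the acetyltransferase core, ranged over 79.1 to 80.2, 67.3 to 74.5 and 70.6 to 73.5 CPM, with log2 changes of -0.19 (adjusted p = 0.0054) and -0.13 (adjusted p = 0.0426). The siHAND2 change of DLAT did not pass with any 1 of siCTR replicates 1 to 3, siHAND2 replicate 1 or siHAND2 replicate 2 left out, at -0.14 to -0.12, nor with no filter on low values or no intensity trend. PC, pyruvate carboxylase (chromosome 11, 66848417 to 66958386), measured 28.8, 26.4 and 28.8 CPM under siCTR, 25.7, 23.6 and 25.0 under siMYCN and 20.9, 21.5 and 19.6 under siHAND2. The siHAND2 libraries were lowest without overlap, -0.42 (adjusted p = 6.82e-05) from siCTR and -0.25 (adjusted p = 0.00566) from siMYCN. The siMYCN change of PC, -0.17 (adjusted p = 0.04), did not pass when siCTR replicate 1 or 3, or siMYCN replicate 2 or 3, was left out (-0.18 to -0.14), nor with no filter on low values. LRFN4 on the opposite strand overlaps PC, with a level of 31.3 CPM, so PC is uncertain too.

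Of the 5 pentose phosphate genes, 2 were lower in each knockdown and none was higher, also at an unadjusted limma p below 0.05. By adjusted p, 11.4% and 11.8% of all genes were lower in siMYCN and siHAND2 libraries, and 24.5% and 18.1% higher. TKT, transketolase of the non-oxidative branch (chromosome 3, 53224712 to 53256052), measured 450.3, 459 and 428 CPM with the control siRNA, 358, 338 and 344 with siMYCN and 358, 355 and 323 with siHAND2. It was lower in all 6 knockdown libraries, with log2 changes of -0.36 (SE 0.046, adjusted p = 1.94e-05) and -0.37 (SE 0.046, adjusted p = 1.63e-05). PGD, the phosphogluconate dehydrogenase of the oxidative branch, overlapped between the groups, at 114 to 119.9, 115 to 119 and 110.1 to 119 CPM, with log2 changes of -0.0085 (adjusted p = 0.901) and -0.037 (adjusted p = 0.546). TALDO1, transaldolase, likewise passed in neither contrast, at 79.3 to 81.8 CPM under siCTR, 79.8 to 81.7 under siMYCN and 74.6 to 78.3 under siHAND2 (adjusted p = 0.991 and 0.263). RPIA, the ribose 5-phosphate isomerase, ranged over 17.0 to 20.3, 17.2 to 19.7 and 15.6 to 16.4 CPM. It was lower in siHAND2 libraries, -0.23 (adjusted p = 0.0282), and not called in siMYCN libraries, -0.049 (adjusted p = 0.649). The siHAND2 call was lost when siCTR replicate 1 or 2, or siHAND2 replicate 1 or 2, was left out, at -0.23 to -0.18, and with no filter on low values. RPE, the ribulose phosphate epimerase, ranged over 44.7 to 47.5 CPM with the control siRNA, 39.3 to 42.0 with siMYCN and 46.0 to 51.3 with siHAND2. The siMYCN libraries were lowest, -0.18 (adjusted p = 0.0154) from siCTR, a call that did not hold when siMYCN replicate 1 or either of siCTR replicates 2 and 3 was left out (-0.18 to -0.16). RPE was higher in siHAND2 than in siMYCN libraries by 0.23 (adjusted p = 0.00524), and its row overlaps KANSL1L on the opposite strand, which has 30.6 CPM.

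The knockdowns were also compared directly. In siHAND2 against siMYCN libraries 7 of the 36 were lower and 2 higher, against 15.5% of all genes lower and 11.4% higher, or 26.9% in either direction. The 9 members called were thus near the share over all genes, and the median log2 difference was -0.011 for the members and -0.0063 for all genes. A call with a difference of -0.25 or below was made for 3 members, against 9.96% of all genes, and 11 members had all siHAND2 below all siMYCN libraries, against 21.6%. The lower members were SLC2A1, HK1, GPI, PFKL, ALDOC, SLC16A3 and PC. PDK1 and RPE were higher. The widest difference was that of ALDOC at -0.49. HK2, TPI1, ENO1, LDHA, PGK1 and TKT were not called, with log2 differences of -0.034, -0.016, 0.038, 0.075, -0.0031 and -0.0071.

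**Figure D4:**
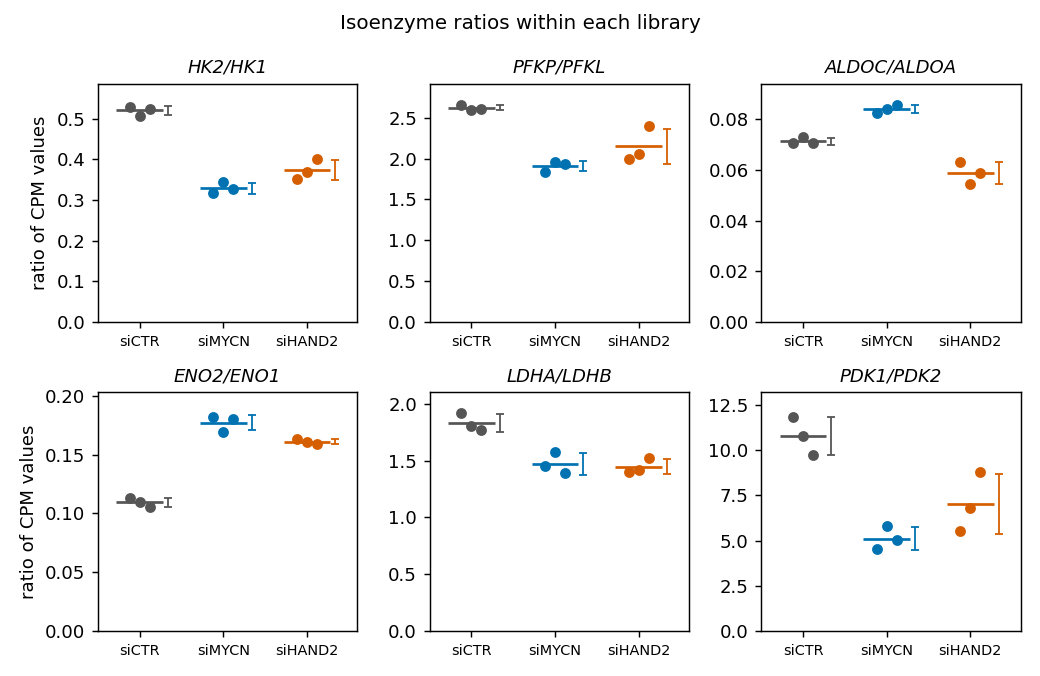
Ratio of CPM (vertical axis, from 0) for 6 isoenzyme pairs in each of the 9 libraries, with the group mean as a line and its SD as a bar. HK2/HK1, LDHA/LDHB and PDK1/PDK2 are lower and ENO2/ENO1 is higher in all 6 knockdown libraries than in the 3 siCTR libraries.

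Ratios between isoenzymes of the same step were described for each library. CPM ratios within a library do not depend on library scaling, and 11 such pairs were compared. Of these, 10 did not overlap siCTR in siMYCN and 9 in siHAND2 libraries. The share of non-overlap over other gene pairs was not measured, so these counts have no background. PFKL and PDK2 each stand in more than 1 pair, and most pairs hold a gene called above. Of single genes, 16.1% lay below and 33.4% above all siCTR libraries in siMYCN, and 16.6% and 25.8% in siHAND2 libraries. PFKFB3/PFKFB4 overlapped siCTR in siMYCN libraries, and PFKM/PFKL and PDK3/PDK2 did so in siHAND2 libraries. The HK2/HK1 ratio was 0.520 ± 0.0116 (SD, n = 3) in siCTR, 0.329 ± 0.0138 in siMYCN and 0.374 ± 0.0251 in siHAND2 libraries. The LDHA/LDHB ratio was 1.83 ± 0.0784, 1.47 ± 0.0959 and 1.45 ± 0.0660 in the same order. The ENO2/ENO1 ratio went the other way, at 0.110 ± 0.00388, 0.177 ± 0.00675 and 0.161 ± 0.00239. In these 3 pairs neither knockdown overlapped siCTR. PFKP/PFKL was 2.62 ± 0.0329, 1.91 ± 0.0658 and 2.15 ± 0.213, and PDK1/PDK2 was 10.8 ± 1.07, 5.11 ± 0.637 and 7.04 ± 1.65. ALDOC/ALDOA was highest in siMYCN and lowest in siHAND2 libraries, at 0.0712 ± 0.00137, 0.0840 ± 0.00150 and 0.0587 ± 0.00447. With 3 libraries against 3, a two-sided exact permutation test cannot go below p = 0.1, and over the 33 tests the smallest adjusted p was 0.127, so no pair could pass the threshold.

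Levels between genes were compared per kilobase of the canonical transcript. In siCTR libraries GAPDH had the highest level of the 36, at 2583 ± 69.2 CPM per kb (SD, n = 3), followed by ENO1 at 988 ± 28.5 and TPI1 at 812 ± 22.6. LDHA at 639.6 ± 15.2, LDHB at 601 ± 19.6 and PKM at 599 ± 10.1 CPM per kb came next. In siMYCN libraries LDHA and LDHB stood at 423 ± 11.6 and 495 ± 18.9 CPM per kb, and in siHAND2 libraries at 447 ± 34.9 and 529.8 ± 21.4, so the mean of LDHB was above that of LDHA in either knockdown. This order rests on the canonical lengths of 2241 bases for LDHA and 1303 for LDHB. In CPM without length, LDHA stayed above LDHB, at mean ratios of 1.47 and 1.45. HK1 stood above HK2 in siCTR libraries, at 73.6 ± 4.55 against 24.5 ± 1.68 CPM per kb. SLC16A1 at 84.8 ± 1.46 exceeded SLC16A3 at 1.42 ± 0.115, and SLC2A3 had the lowest level of the 36 at 0.389 ± 0.0378 CPM per kb.

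Other genes of the same pathways were counted from lists that do not hold the 36. Of 34 other glycolysis and gluconeogenesis genes 16 were tested, of which 4 were higher and 3 lower in siMYCN libraries, and 3 higher and 5 lower in siHAND2 libraries, with medians of -0.02 and -0.03 on the log2 scale. The share higher was 25% in siMYCN, beside 24.5% of all genes tested, and 18.75% in siHAND2 libraries, beside 18.1%. The share lower was 18.75% and 31.25%, beside 11.4% and 11.8% of all genes. ENO3, the muscle enolase, measured 15.7, 17.3 and 14.5 CPM under siCTR, 31.0, 32.2 and 31.0 under siMYCN and 21.7, 19.6 and 24.1 under siHAND2, a log2 change of 0.95 (adjusted p = 1.58e-07) and 0.44 (adjusted p = 0.000354). It was higher in all 6 knockdown libraries, opposite in sign to ENO1. FBP1, the gluconeogenic fructose bisphosphatase, measured 10.2, 8.79 and 8.55 CPM with the control siRNA, 14.8, 16.0 and 15.6 with siMYCN and 2.86, 2.17 and 3.36 with siHAND2. The 3 groups were far apart, with siMYCN highest and siHAND2 lowest, 0.70 (adjusted p = 0.000101) and -1.43 (adjusted p = 4.13e-08) from siCTR and -2.13 (adjusted p = 1.9e-10) between the knockdowns. PGM2L1, a phosphoglucomutase family enzyme, rose by 0.53 (adjusted p = 2.17e-05) and 0.41 (adjusted p = 0.000296), and PGM1, the main phosphoglucomutase, changed by -0.25 (adjusted p = 0.000678) and -0.43 (adjusted p = 3.03e-06).

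Of 13 other glucose transporters 4 were tested, with 2 higher and 1 lower in siMYCN and 1 higher in siHAND2 libraries. For this and the following lists, the shares over all genes tested were 24.5% higher and 11.4% lower in siMYCN libraries. They were 18.1% and 11.8% in siHAND2 libraries. SLC2A6, a hexose transporter of lysosomes, had a log2 change of 0.44 (adjusted p = 0.000231) in siMYCN libraries. SLC2A8, the intracellular transporter GLUT8, had 0.24 (adjusted p = 0.0265) in siMYCN and 0.48 (adjusted p = 0.0003) in siHAND2 libraries, and its siMYCN call was lost without siCTR replicate 1 or any 1 siMYCN library, at 0.16 to 0.25, and under median-ratio scaling (0.19) and quantile normalization (0.17). With no filter on low values this siMYCN call was lost as well. Of 20 other pyruvate and lactate genes 14 were tested, with 2 higher and 4 lower in siMYCN and 1 higher and 5 lower in siHAND2 libraries. The mitochondrial malic enzyme ME2 fell to log2 changes of -0.30 (adjusted p = 6.33e-05) and -0.31 (adjusted p = 5.67e-05), and citrate synthase, CS, to -0.26 (adjusted p = 0.000152) and -0.17 (adjusted p = 0.00522). Of 12 other pentose phosphate genes 8 were tested, with 1 higher and 1 lower in siMYCN libraries and 0 in siHAND2 libraries by limma, where 1 was higher and 1 lower at an unadjusted p below 0.05. PRPS2, a ribose phosphate pyrophosphokinase, had a log2 change of -0.33 (adjusted p = 0.000201) in siMYCN libraries. H6PD, the hexose phosphate dehydrogenase of the endoplasmic reticulum, had 0.21 (adjusted p = 0.0354), a call lost when siCTR replicate 2 or 3, or siMYCN replicate 1 or 3, was left out, at 0.17 to 0.20, and under median-ratio scaling (0.15) and quantile normalization (0.13). The H6PD call was also lost with no filter on low values. PGLS, the lactonase, passed in neither (-0.060 at adjusted p = 0.485 and -0.055 at adjusted p = 0.537).

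**Figure D5:**
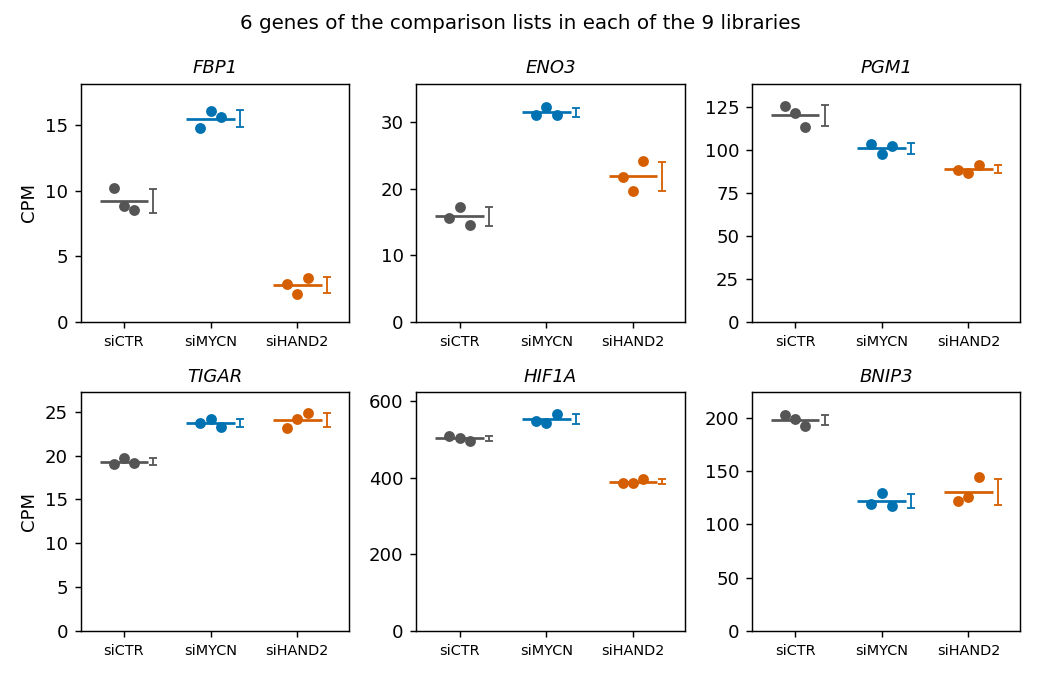
CPM (vertical axis, from 0) of 6 genes outside the 36 in each of the 9 libraries, with the group mean as a line and its SD as a bar. FBP1 and HIF1A are highest in the siMYCN and lowest in the siHAND2 libraries, while TIGAR and ENO3 are higher and BNIP3 is lower in all 6 knockdown libraries than in siCTR.

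Hypoxia-linked genes were compared because several members belong to the known response to hypoxia-inducible factors. Of 27 listed genes 24 were tested, with 4 higher and 9 lower in siMYCN and 5 higher and 14 lower in siHAND2 libraries, and medians of -0.08 and -0.29. Called lower were 37.5% and 58.33%, beside 11.4% and 11.8% of all genes. Called higher were 16.67% and 20.83%, beside 24.5% and 18.1%. BNIP3, a mitophagy receptor, had log2 changes of -0.70 (adjusted p = 2.18e-07) and -0.60 (adjusted p = 7.33e-07), and FAM162A, a mitochondrial hypoxia-response gene, -1.01 (adjusted p = 1.69e-07) and -0.76 (adjusted p = 2.49e-06). Both were lower after each knockdown, as PDK1, LDHA and SLC2A1 were. The list was mixed, since 11 of the 24 were not called in siMYCN and 5 in siHAND2 libraries. A shared cause was not tested. VEGFA, the endothelial growth factor, was lower in siHAND2 libraries, -0.50 (adjusted p = 9.43e-07), and not called in siMYCN libraries, -0.088 (adjusted p = 0.176), where it passed under median-ratio scaling and quantile normalization (-0.15 each). HIF1A and EPAS1, which encode the oxygen-regulated alpha subunits, were chosen after their values were seen. HIF1A measured 509, 505 and 496 CPM under siCTR, 549, 542 and 567 under siMYCN and 386, 387 and 396 under siHAND2. It was higher in siMYCN (0.13 at adjusted p = 0.0103, not called under median-ratio scaling or without siMYCN replicate 3) and lower in siHAND2 libraries (-0.37 at adjusted p = 1.42e-06). EPAS1 measured 1.41, 1.72 and 1.66 CPM with the control siRNA, 2.30, 1.50 and 1.68 with siMYCN and 9.73, 8.88 and 8.68 with siHAND2, a log2 change of 1.96 (adjusted p = 2.13e-09) in siHAND2 libraries. TIGAR, a fructose bisphosphatase that opposes PFKFB kinase activity and was also chosen after its values were seen, was higher in both, by 0.28 (adjusted p = 0.000887) and 0.30 (adjusted p = 0.000632).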

How the data were processed

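The 9 libraries, 3 per siRNA, are columns of 1 deposited table whose values are CPM, per the file headers. The column names in the file headers carry the aligner's name, STAR. STAR 2.5.1, Partek and the builds hg19 and GRCh37 are named by the submitters' processing notes. How reads were counted, with or without strand, and how multi-mapped reads were treated are not given in the sources used here. All 36 members lie on the chromosome of a GRCh38 gene table and 35 have a start or end within 5000 bp of it, so positions are given as GRCh38, from 1, with the end 1 base before the stop in the table. The members and lists were chosen with earlier results of these data known.

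Low CPM values fell on steps whose inverse gave 21.1 to 32.7 M assigned reads. Of values up to 20 steps, 79.3% to 80.8% were whole within 0.02 of a step, too few for a count model. Tests used log2(CPM + 1), which understates the change of low genes, and the 14495 of 25084 genes that reached 1 CPM in 3 or more of 9 libraries. A linear model in limma 3.58.1 (R 4.3.3), moderated by eBayes with an intensity trend, was fitted to all 9 libraries for 3 contrasts. Tests were two-sided with Benjamini-Hochberg adjustment over all genes tested and a threshold of 0.05. The model was also run on simulated data in which equal numbers of genes were raised and lowered, in siMYCN libraries alone. That simulation did not probe the imbalance between genes called higher and lower, or its dependence on scaling. Errors are SDs over 3 libraries or limma standard errors (SE). Values per library are given for members called with an absolute log2 change of at least 0.25 and also for GAPDH and ENO2, ranges for the others. From each comparison list the 2 genes with the smallest adjusted p in each contrast with siCTR, averaging 5 CPM or more and past the threshold, were named. PGLS and 1 gene not reported here were to be named whatever their values. Alternatives were other pseudocounts, filters and scalings, a fit of the compared groups alone, no trend, precision weights, a replicate block, each library left out, and, chosen after seeing the data, pseudogene rows added to the members. Lengths are of Ensembl-canonical transcripts, matched by symbol.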

Additional observations from a re-analysis of the deposited data

How the results depend on the processing

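The number of the 36 genes called stayed within 1.5 times of 28, 25 and 9 in every alternative run, at 23 to 28 for siMYCN against siCTR, 23 to 28 for siHAND2 against siCTR and 6 to 12 for siHAND2 against siMYCN. The 9 in the direct comparison fell to 6 without siMYCN replicate 1 and rose to 12 under quantile normalization. Equal replicate numbers were not taken to pair the libraries in the main fit, and a replicate block was run as an alternative. Deviations from the group means correlated between same-numbered libraries at r = -0.04 to 0.31 and between differently numbered ones at r = -0.30 to 0.14. Of 9 libraries, 7 correlated best with their own number, a hint of pairing from the data and not from the design. With the replicate block 28, 28 and 10 members were called.

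Among members, 14 in siMYCN, 9 in siHAND2 and 3 in the direct comparison changed a call or a sign under some alternative. PDHB in siMYCN was -0.013 under median-ratio scaling and -0.015 under quantile normalization, and SLC2A6 in siHAND2 libraries was -0.0045 and -0.016. With pseudogene rows added, SLC2A3 was 0.0091 in siMYCN and 0.086 in siHAND2 libraries. With 1 library left out, PGD in siMYCN ranged from -0.026 to 0.0074, TALDO1 in siMYCN from -0.013 to 0.0092, EPAS1 in siMYCN from -0.0039 to 0.20, PDK2 in siHAND2 from -0.017 to 0.13, RPE in siHAND2 from -0.0074 to 0.069 and SLC2A6 in siHAND2 from -0.0055 to 0.089. The cause was not tested.

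Depth limits SLC2A3, SLC16A3 and PFKFB2, the members below 10 CPM. The rows of 22 members overlap another gene, and the counting rules for such reads are not given in the sources used here.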
